A study of Mus musculus with 6 samples.

Results

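The triad is the junction of skeletal muscle at which a tubule of the surface membrane meets the sarcoplasmic reticulum, the calcium store of the fibre. The transcripts of 10 genes of this junction were followed: Ryr1, Ryr3, Cacna1s, Cacna2d1, Cacnb1, Cacng1, Stac3, Jph1, Jph2 and Trdn. Members were all probe sets whose platform annotation gave exactly 1 gene symbol, that of one of these genes. Among 18194 named genes on the array, the 10 were read by 27 of 45101 probe sets, and 26 of these were among the 27022 probe sets bright enough to be tested. On 3 arrays the RNA was that of control primary mouse myoblasts, the muscle precursor cells grown in culture. Another 3 carried RNA of primary myoblasts infected with lentivirus made from a Tet-pLKO-puro vector, which holds an shRNA that targets the long non-coding RNA LncMyoD, studied in muscle differentiation. All samples are labelled 21 days old. The sources used here do not give the strain, what the controls received, whether an inducer was given for the Tet vector, or the number of hairpins. Growth and differentiation media are both described, without saying which the profiled cells were in, and the knockdown itself is not analysed here.

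In excitation-contraction coupling an action potential in the tubule moves the voltage sensor CaV1.1, and CaV1.1 opens the ryanodine receptor, the release channel of the store, by direct contact. Cacna1s encodes the pore and sensor subunit of CaV1.1, Cacna2d1, Cacnb1 and Cacng1 its auxiliary subunits, and Stac3 an adaptor that CaV1.1 needs for coupling. Ryr1 is the main release channel of skeletal muscle and Ryr3 a related channel that is more abundant in immature muscle. Junctophilins 1 and 2 tie the tubule to the store, and triadin links the ryanodine receptor to calsequestrin, the calcium buffer inside the store. These genes are switched on as myoblasts differentiate and fuse.

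The upstream sequences of the voltage sensor and the release channel are shown because both transcripts fell and their proteins act on each other. The set of upstream windows used here, on GRCm38.p6, covered 5 of the 10 genes (Ryr1, Cacna1s, Cacna2d1, Cacnb1 and Jph2). Bases inside the RefSeq span of the gene were left off, so the printed sequences stop short of the start site used for the windows. Capitals mark matches to the E-box, CANNTG, read by MyoD-family factors, and to the MCAT element read by TEAD factors, spelled CATTCC on one strand or the other.
Cacna1s, chr1:136052561-136052805, plus strand: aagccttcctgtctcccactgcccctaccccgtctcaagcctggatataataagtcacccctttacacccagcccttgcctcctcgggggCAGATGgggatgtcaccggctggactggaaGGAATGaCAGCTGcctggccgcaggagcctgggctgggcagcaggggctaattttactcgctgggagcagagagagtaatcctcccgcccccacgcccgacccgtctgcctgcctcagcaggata
Ryr1, chr7:29125180-29125401, minus strand: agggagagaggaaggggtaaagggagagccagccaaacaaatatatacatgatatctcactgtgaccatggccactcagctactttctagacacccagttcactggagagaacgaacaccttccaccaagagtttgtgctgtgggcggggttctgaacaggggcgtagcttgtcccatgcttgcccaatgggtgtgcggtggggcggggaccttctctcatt
The Cacna1s window of 250 bases before the start site held 2 E-boxes and, next to the second of them, 1 MCAT match. The second E-box, CAGCTG, lay 123 bases before the start site, counted from the end of the full window at 136052810. The windows of the same length before Ryr1 and Cacna2d1 held no E-box, MCAT or MEF2 match. Cacnb1 had an E-box, CACATG, 27 bases before 1 annotated start, and the window of its other start held no match. Both annotated starts of Jph2 had CAGCTG in their windows, 29 and 9 bases before the start, which is the same site because the windows overlap. Of all 32851 such windows 66.2% held an E-box, 13.0% an E-box spelled CAGCTG, 12.6% an MCAT match on either strand and 0.508% the MEF2 motif. A match describes these letters only and is not a measured binding site.

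Transcripts of the triad fell in the shRNA samples in 9 of the 10 genes, on the brightest probe set of each gene, and Stac3 was the exception. Of the 26 tested probe sets 22 fell, 0 rose and 4 did not pass the threshold (limma, Benjamini-Hochberg adjusted p under 0.05 over all tested probe sets). Among those that fell, Ryr3 1432133_at was bright enough to be tested only through its controls (mean 7.08, against 6.28 in shRNA samples). Over the whole array 53.9% of tested probe sets passed that threshold, 23.5% lower and 30.4% higher. By gene 58.5% of 12408 passed, 22.8% lower and 35.7% higher. The median log2 difference (shRNA minus control) was -0.41 over the 26 triad probe sets and 0.021 over all probe sets tested. It was -0.33 over the 10 genes and 0.046 over all genes tested. In 23 of the 26 tested probe sets every shRNA array lay below every control array, a pattern found in 25.9% of all tested probe sets. In either direction, arrays of the groups did not overlap in 59.5%. Some gaps among the 23 were very small, at 7e-05 for Trdn 1426143_at, 0.0052 for Cacna2d1 1433643_at and 0.011 for Trdn 1426144_x_at. With each array centred on the median of its tested probe sets, 45.0% of the calls over the whole array were increases, against 56.4% as deposited. The triad median was then -0.47 and 23 of its probe sets fell.

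**Figure D1:**
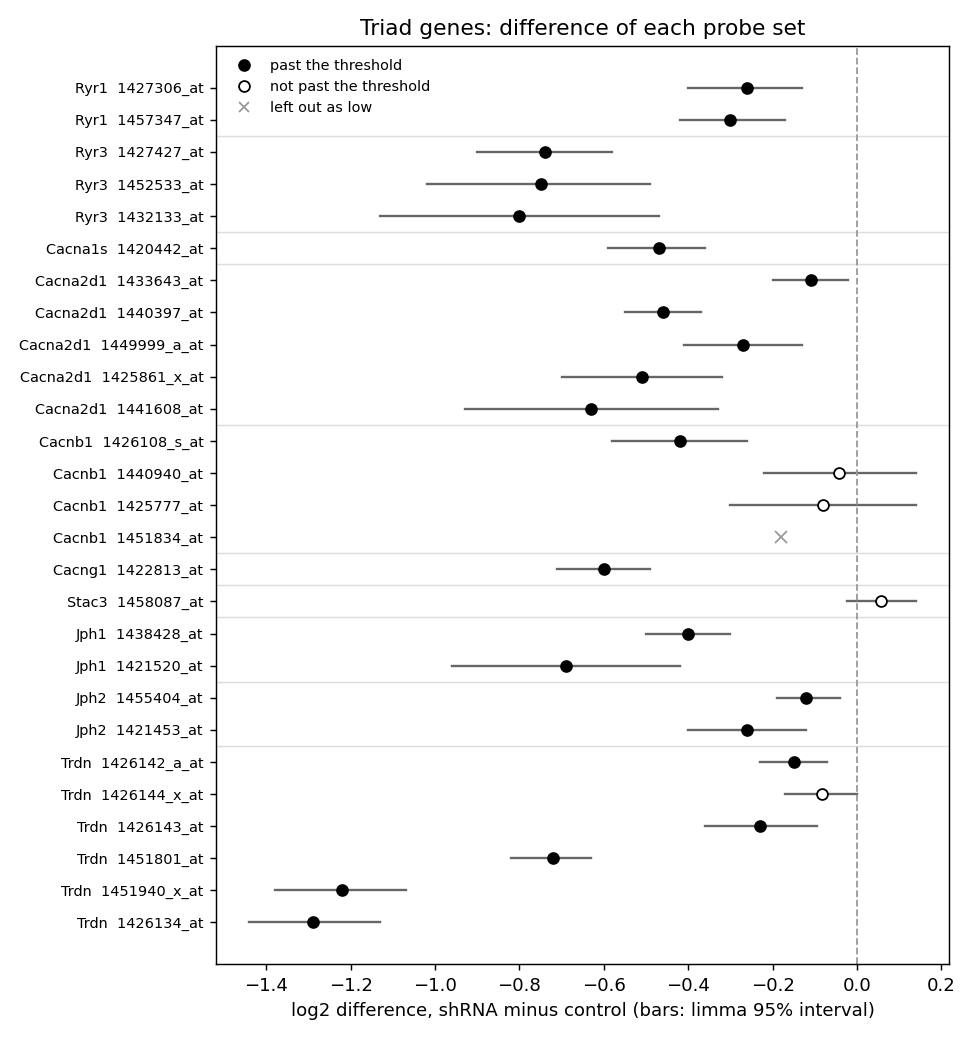
Log2 difference (shRNA minus control, 3 arrays each, x axis) of each of the 27 probe sets of the triad genes, with limma's 95% interval as a bar; filled points passed the threshold, open points did not, and the cross was left out as low. The points run from -1.29 for a triadin probe set to 0.056 for Stac3, and the largest spread within 1 gene is that of Trdn.

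Errors after ± are SDs over n = 3 arrays, and values are normalised log2 signals, so that a difference of 1 is a 2-fold change. The replicates are labelled biological without naming separate cultures or animals, so the spread behind the p-values is that of these arrays and could be technical. Arrays of the same group correlated at r = 0.996 to 0.997 across probe sets and arrays of different groups at 0.987 to 0.990. In RNA from whole cultures, fewer cells of a type and less RNA per cell cannot be told apart. Of 5 myoblast markers, all tested, 3 rose and 0 fell, beside 35.7% of all genes tested that rose and 22.8% that fell. Those that rose were Pax7 (0.66), Myf5 (0.62) and Cdh15 (0.40), while Myod1 (0.023) and Des (0.034) were not called. The summed linear signal of the 5 was 31000 to 33000 in controls and 34700 to 36500 in shRNA samples. Of 6 markers of differentiated muscle 4 fell and 0 rose, with a summed signal of 89700 to 93700 against 85200 to 88400. The large difference was that of Ckm (-1.41), while Myh3 (-0.15), Myog (-0.13) and Acta1 (-0.088) fell little. Tnnt3 (0.019) and Mylpf (0.018) were not called. Both lists thus had signal above the filter in both groups. Endothelial (4), cardiac (4), adipocyte (2) and neural (2) markers were all below the filter on low signal, whose limit was a mean log2 signal of 6.50. Fibroblast markers passed it in 2 of 4 cases, with Pdgfra higher (0.89, limma adjusted p = 4.68e-05) and Col1a1 lower (-0.42, limma adjusted p = 0.0301) in shRNA samples (summed signal 342 to 356 in controls and 351 to 445 in shRNA samples, Thy1 and Dcn below the filter). Leukocyte markers passed in 1 of 4, Cd68, which was called higher (0.33, limma adjusted p = 0.0331) from a control mean of 6.40 under the limit (190 to 216 and 208 to 260, Ptprc, Adgre1 and Cd3e below it). Smooth muscle markers passed in 2 of 3, with Smtn lower (-0.45, limma adjusted p = 9.10e-06) and Myh11 not called (1970 to 2100 and 1500 to 1580, Cnn1 below it). The log2 ratio of 3' to 5' signal, a sign of RNA integrity, was higher in shRNA samples by 0.044 for actin and 0.085 for GAPDH (exact permutation p = 0.1 each, two-sided, the smallest that 20 assignments allow). The part of these markers and of RNA integrity in the triad result was not tested.

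Among the subunits of the voltage sensor CaV1.1, the pore subunit and 3 auxiliary subunits fell on their brightest probe sets. Cacna1s, read by 1 probe set (1420442_at), stood at 10.73, 10.89 and 10.87 in controls and 10.36, 10.32 and 10.39 in shRNA samples. All shRNA arrays lay below all control arrays, and the difference was -0.47 (SE 0.055, 1.39-fold lower, limma adjusted p = 9.59e-06). Cacng1, the gamma subunit found in skeletal muscle, was also read by 1 probe set (1422813_at). Its signal was 12.59, 12.49 and 12.50 in controls and 11.87, 11.86 and 12.05 in shRNA samples. The groups were separated by a gap of 0.45, and Cacng1 fell 1.52-fold (difference -0.60, SE 0.052, limma adjusted p = 7.22e-07).

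Cacna2d1, the alpha2-delta subunit on the outer face of the channel, fell on each of its 5 probe sets, by 0.11 to 0.63 on the log2 scale. The brightest (1433643_at) showed the smallest difference, with 13.21, 13.23 and 13.20 in controls and 13.04, 13.20 and 13.06 in shRNA samples. The second shRNA array touched the range of the controls there, with a gap of 0.0052, and the call was the least secure of the triad (difference -0.11, limma adjusted p = 0.0388). Leaving out control 1 (-0.11, limma adjusted p = 0.0546), control 2 (-0.10, 0.0980), control 3 (-0.12, 0.0775), shRNA array 1 (-0.084, 0.135) or shRNA array 3 (-0.092, 0.127) ended it, within a range over the alternatives of 0.00455 to 0.138. The next probe set of Cacna2d1 (1440397_at) stood at 11.91, 11.96 and 11.99 in controls and 11.45, 11.51 and 11.51 in shRNA samples. These groups lay clearly apart, with a difference of -0.46 (SE 0.042, limma adjusted p = 1.05e-06). The other 3 probe sets fell by 0.27 (1449999_a_at), 0.51 (1425861_x_at) and 0.63 (1441608_at), the last from 7.45 ± 0.23 to 6.82 ± 0.16.

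Cacnb1, the beta subunit on the inner face, did not give the same reading on all of its probe sets. On the brightest (1426108_s_at) it stood at 9.41, 9.56 and 9.32 in controls and 9.01, 8.99 and 9.04 in shRNA samples. That is a 1.34-fold decrease with no overlap of the groups (difference -0.42, SE 0.075, limma adjusted p = 0.000405). On 1440940_at the means were 8.41 ± 0.070 and 8.37 ± 0.026, and the 95% interval of the difference ran from -0.22 to 0.14 (limma adjusted p = 0.698). On 1425777_at they were 7.78 ± 0.086 and 7.70 ± 0.12, with an interval of -0.30 to 0.14 (limma adjusted p = 0.539). The arrays of the groups overlapped on both of these. The fourth probe set (1451834_at), at 6.49 ± 0.085 and 6.31 ± 0.081, was left out as low. Probe sets ending in _s_at can read more than 1 transcript, and without them the call of Cacnb1 rested on a probe set that did not pass.

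Stac3, the adaptor of CaV1.1, was the one gene whose signal was not lower in the shRNA samples. Its single probe set (1458087_at) stood at 12.72, 12.68 and 12.63 in controls and 12.76, 12.71 and 12.73 in shRNA samples. The groups overlapped, and the difference was 0.056 with a 95% interval of -0.025 to 0.14 (limma adjusted p = 0.225). A decrease larger than 0.025 on the log2 scale lay outside that interval, although with the arrays centred the difference was -0.0076 (limma adjusted p = 0.855, range over the alternatives 0.102 to 0.855). Within each array, the log2 ratio of Cacna1s to Stac3 was -1.99 to -1.76 in controls and -2.40 to -2.34 in shRNA samples, a change of -0.53. Its exact two-sided permutation p was 0.1, the smallest possible, and 0.14 after Benjamini-Hochberg adjustment over the 7 pairs of triad genes compared. The ratio of Cacna1s to Cacnb1, by contrast, was 1.40 ± 0.13 in controls and 1.34 ± 0.012 in shRNA samples, with overlapping arrays (change -0.056, exact permutation p = 1). That of Cacna1s to Cacng1 changed by 0.13 (exact permutation p = 0.3, adjusted 0.35), and that of Cacna1s to Cacna2d1 by -0.36 (p = 0.1, adjusted 0.14). Each ratio rests on the brightest probe set of its genes. For Cacnb1 that probe set differed by -0.42, but 1440940_at by -0.042 and 1425777_at by -0.080. For Cacna2d1 it differed by -0.11, but 1440397_at by -0.46. The ratios to Cacnb1 and Cacna2d1 thus depend on the choice of probe set.

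**Figure D2:**
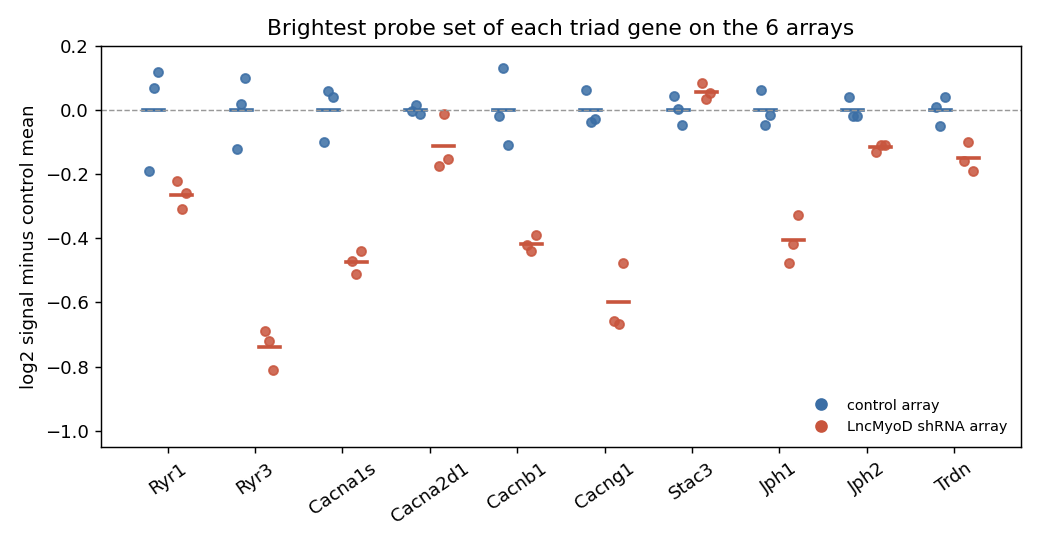
Log2 signal on each of the 6 arrays (points) for the brightest probe set of each triad gene, as the distance from the mean of its 3 control arrays (y axis), with group means as lines. Control and shRNA arrays overlap for Stac3, shRNA arrays lie lower for the other genes, and the shift is largest for Ryr3 (-0.74) and Cacng1 (-0.60).

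Both ryanodine receptors fell, and on the log2 scale Ryr3 fell more than Ryr1. Ryr1, the channel opened by CaV1.1, stood at 12.79, 13.05 and 13.10 in controls and 12.76, 12.67 and 12.72 in shRNA samples on its brighter probe set (1427306_at). The first control array lay only 0.037 above the highest shRNA array. The difference was -0.26 (SE 0.064, 1.20-fold lower, limma adjusted p = 0.00370). The dimmer probe set of Ryr1 (1457347_at) gave -0.30 (SE 0.059), from 11.56 ± 0.12 to 11.26 ± 0.048.

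Ryr3 was read by 3 probe sets, and they gave nearly the same difference. The brightest (1427427_at) stood at 9.73, 9.87 and 9.95 in controls and 9.16, 9.13 and 9.04 in shRNA samples. The gap between the groups was 0.57, and Ryr3 fell 1.67-fold (difference -0.74, SE 0.073, limma adjusted p = 2.34e-06). The others showed -0.75 (1452533_at, from 7.69 ± 0.19 to 6.94 ± 0.12) and -0.80 (1432133_at, from 7.08 ± 0.15 to 6.28 ± 0.29). The shRNA mean of the last lay below 6.50, the limit for testing, so the size of that difference is not settled. The within-array log2 ratio of Ryr1 to Ryr3 rose from 3.07 to 3.18 in controls to 3.54 to 3.68 in shRNA samples, a change of 0.48 (exact permutation p = 0.1, the smallest possible, adjusted 0.14). The Ryr1 probe set of this ratio is brighter than that of Ryr3 (mean 12.85 against 9.48). Of the tested probe sets in its own signal range, 11.6% showed a lower difference than Ryr1. For Ryr3 that share was 4.75%. The log2 ratio of Cacna1s to Ryr1 changed by -0.21, from -2.15 ± 0.088 to -2.36 ± 0.034 (exact permutation p = 0.1, adjusted 0.14).

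Lss, Srgap2 and Klhl30 came nearest to the brightest Ryr3 probe set in their pattern over the 6 arrays, by Euclidean distance between values centred on their own mean, among 11725 genes. Their distances on the log2 scale were 0.0737, 0.0781 and 0.0964, with shRNA minus control differences of -0.72, -0.75 and -0.77. Lss encodes lanosterol synthase, an enzyme of sterol synthesis. With 6 arrays in 2 groups this distance is set mostly by the size of the difference.

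Both junctophilins fell, Jph1 further than Jph2. Jph1, the form typical of skeletal muscle, stood at 12.59, 12.48 and 12.51 in controls and 12.05, 12.11 and 12.20 in shRNA samples (1438428_at). The groups did not overlap, and the decrease was 1.32-fold (difference -0.40, SE 0.047, limma adjusted p = 1.03e-05). Its dimmer probe set (1421520_at) fell by 0.69 on the log2 scale, from 8.26 ± 0.18 to 7.57 ± 0.20. Jph2, the form shared with heart muscle, stood at 13.00, 12.94 and 12.94 in controls and 12.83, 12.85 and 12.85 in shRNA samples (1455404_at). That small difference of -0.12 (SE 0.034, limma adjusted p = 0.0123) was still free of overlap, and its dimmer probe set (1421453_at) gave -0.26, from 9.32 ± 0.022 to 9.06 ± 0.018. The call of the brighter one was lost without a variance trend (limma adjusted p = 0.0646, range over the alternatives 0.000421 to 0.0646). The within-array log2 ratio of Jph1 to Jph2 went from -0.44 ± 0.028 to -0.73 ± 0.070, a change of -0.29 (exact permutation p = 0.1, adjusted 0.14).

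Triadin, Trdn, held both the largest and some of the smallest differences of the triad. Its 6 probe sets were designed from 3 source records, called A, B and C here, and triadin is known to be made in several spliced forms. On record A, 1426134_at stood at 11.51, 11.53 and 11.57 in controls and 10.30, 10.38 and 10.06 in shRNA samples. The groups lay 1.13 apart and Trdn fell 2.44-fold there (difference -1.29, SE 0.071, limma adjusted p = 1.46e-08), with 0.525% of all tested probe sets showing a lower difference. The other probe set of record A (1451940_x_at), at 12.12, 12.06 and 12.18 against 10.92, 11.05 and 10.72, fell 2.34-fold (-1.22, SE 0.070). Both probe sets of this record thus read a decrease of more than 2-fold.

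On record B, 1451801_at stood at 12.44, 12.41 and 12.52 in controls and 11.70, 11.70 and 11.80 in shRNA samples. This was a 1.65-fold decrease with a gap of 0.61 (difference -0.72, SE 0.044, limma adjusted p = 3.60e-08). The 3 probe sets of record C read much smaller differences. The brightest (1426142_a_at) stood at 13.69, 13.63 and 13.72 in controls and 13.52, 13.58 and 13.49 in shRNA samples, 1.11-fold lower (-0.15, SE 0.037, limma adjusted p = 0.00391). For 1426143_at the difference was -0.23 (SE 0.061, limma adjusted p = 0.00699), with the first control array and the second shRNA array both at 12.47. That call was lost without a variance trend (limma adjusted p = 0.0513, range over the alternatives 8.98e-05 to 0.0513). For 1426144_x_at it was -0.083, with a 95% interval of -0.17 to 0.00053, and it did not pass (limma adjusted p = 0.0871). It passed without control 1 (-0.10, limma adjusted p = 0.0474) and with the arrays centred (-0.15, 0.00928), within a range over the alternatives of 0.00928 to 0.331.

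**Figure D3:**
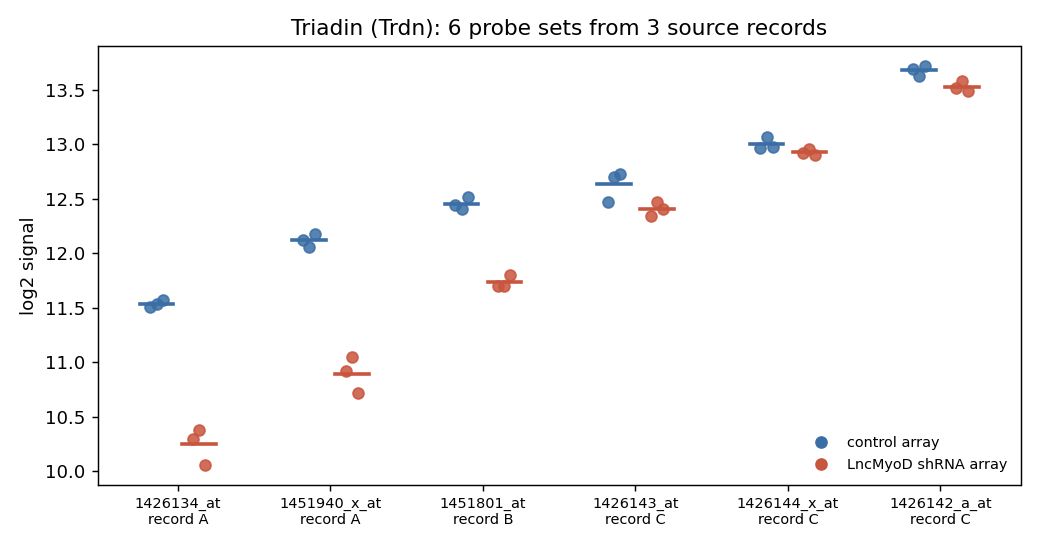
Log2 signal of the 6 Trdn probe sets on each array (points; lines are means of 3 arrays), ordered by the source record they were designed from. The difference of the means is -1.29 and -1.22 on record A, -0.72 on record B, and -0.23 to -0.083 on record C.

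Set against the brightest Trdn probe set of record C within the same array, 1426134_at of record A had a log2 ratio of -2.18, -2.10 and -2.15 in controls and -3.21, -3.19 and -3.43 in shRNA samples. The Trdn probe sets thus changed unequally, with a ratio that changed by -1.14 for this pair and by -0.57 for record B (1451801_at) against the same reference. These ratios were singled out after the values were seen and are given with no test. Which spliced form each record stands for is not given in the sources used here, and the record C probe sets were also the brightest of the gene.

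Over the whole array the spread of the differences was widest at a mean signal of 8 to 9 and narrowed towards both dimmer and brighter probe sets. The range from the 5th to the 95th percentile ran from -0.56 to 0.64 at a signal of 6 to 7, from -0.72 to 0.86 at 8 to 9, and from -0.26 to 0.21 above 13. Of the 26 triad probe sets 8 lay below the 5th percentile of their own signal range, and they belonged to 4 genes: Ryr3 (3 probe sets), Trdn (3), Cacng1 and Jph1 (1 each). Among the Ryr3 probe sets counted there is 1432133_at, whose shRNA mean of 6.28 lay below the limit for testing. In the 7 triad genes with at least 2 tested probe sets (those ending in _x_at left out), the dimmest probe set changed more than the brightest in 6. In all 5443 such genes this held for 55.0%. Cacnb1 was the triad gene in which it did not. In Ryr3 it rested on 1432133_at (-0.80 against -0.74), the probe set named above, so that case is not settled. In Ryr1 the margin was small (-0.30 against -0.26). Across the 26 triad probe sets the mean signal and the difference had r = 0.31 and rho = 0.45, a description over probe sets that share genes and arrays.

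**Figure D4:**
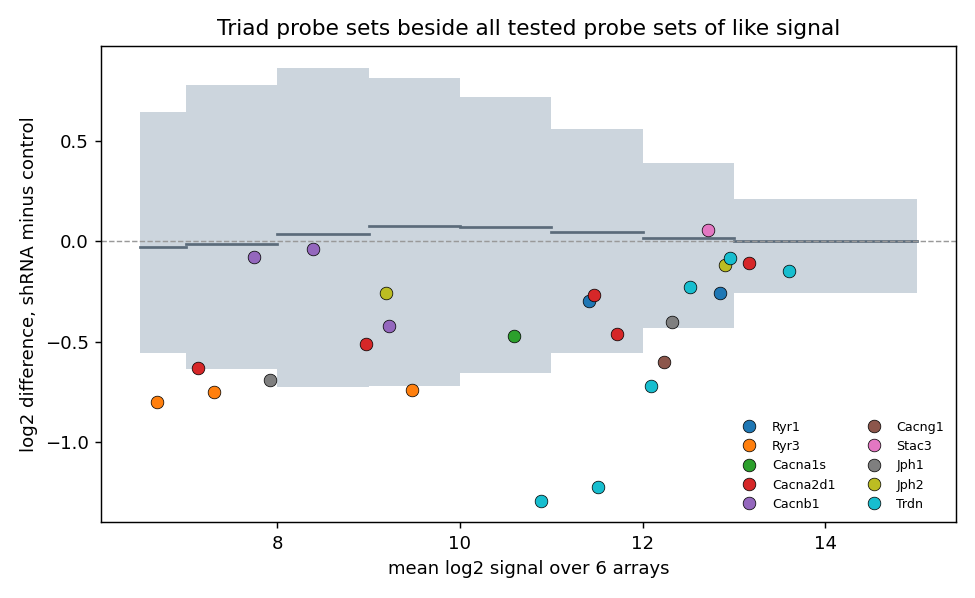
Log2 difference (shRNA minus control) against mean log2 signal over 6 arrays for the 26 tested triad probe sets (points, coloured by gene), over the 5th to 95th percentile (shaded) and median (grey lines) of all tested probe sets in steps of signal. Of the points 8 lie under the shaded band, from Ryr3, Trdn, Cacng1 and Jph1, and Stac3 lies above 0.

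Other genes of the junction and the tubule fell in 14 of 23 tested cases, while 2 rose and 7 did not pass. Of all genes tested 22.8% fell and 35.7% rose. The median difference of the list was -0.25. The list had 29 members, of which 25 had a named probe set here. Homer1, a scaffold that binds ryanodine receptors, fell 2.25-fold, from 11.79 ± 0.059 to 10.62 ± 0.051 (limma adjusted p = 1.70e-09). Of its 5 other tested probe sets 3 also fell and 2 did not pass, with differences from -1.22 to 0.23. One Homer1 probe set among those that fell (from 7.21 to 6.18) passed the limit of 6.50 only through its controls. Pacsin3, a membrane-bending protein, fell by 1.04 (SE 0.053) on the log2 scale, with both of its other probe sets also lower (-0.91 and -1.02). Srl, sarcalumenin, a calcium-binding protein of the store, fell by 0.60 (SE 0.039).

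Among the genes of this list that fell were the calsequestrin genes Casq1 (-0.41) and Casq2 (-0.52), and Asph (-0.51), which encodes junctin among other products. Jsrp1 (0.21) rose. Besides these and the genes named above, Rrad (-0.54), Cav3 (-0.40), Sypl2 (-0.38), Hrc (-0.29), Dysf (-0.29), Dnm2 (-0.25), Mtm1 (-0.23) and Speg (-0.20) fell. The values of Casq2 and Speg come from probe sets ending in _s_at. Casq1, Casq2, Asph and the genes from Rrad to Speg were named after their values were seen. The other gene of the list that rose was Ank1 (0.14, limma adjusted p = 0.0134), which includes a small ankyrin of the store. It was no longer called when control 3 (0.11, limma adjusted p = 0.0635) or shRNA array 3 (0.12, 0.0532) was left out, with the arrays centred (0.078, limma adjusted p = 0.0862) or without a variance trend (0.14, 0.0638), and its adjusted p ranged from 0.00325 to 0.0862 over the alternatives.

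**Figure D5:**
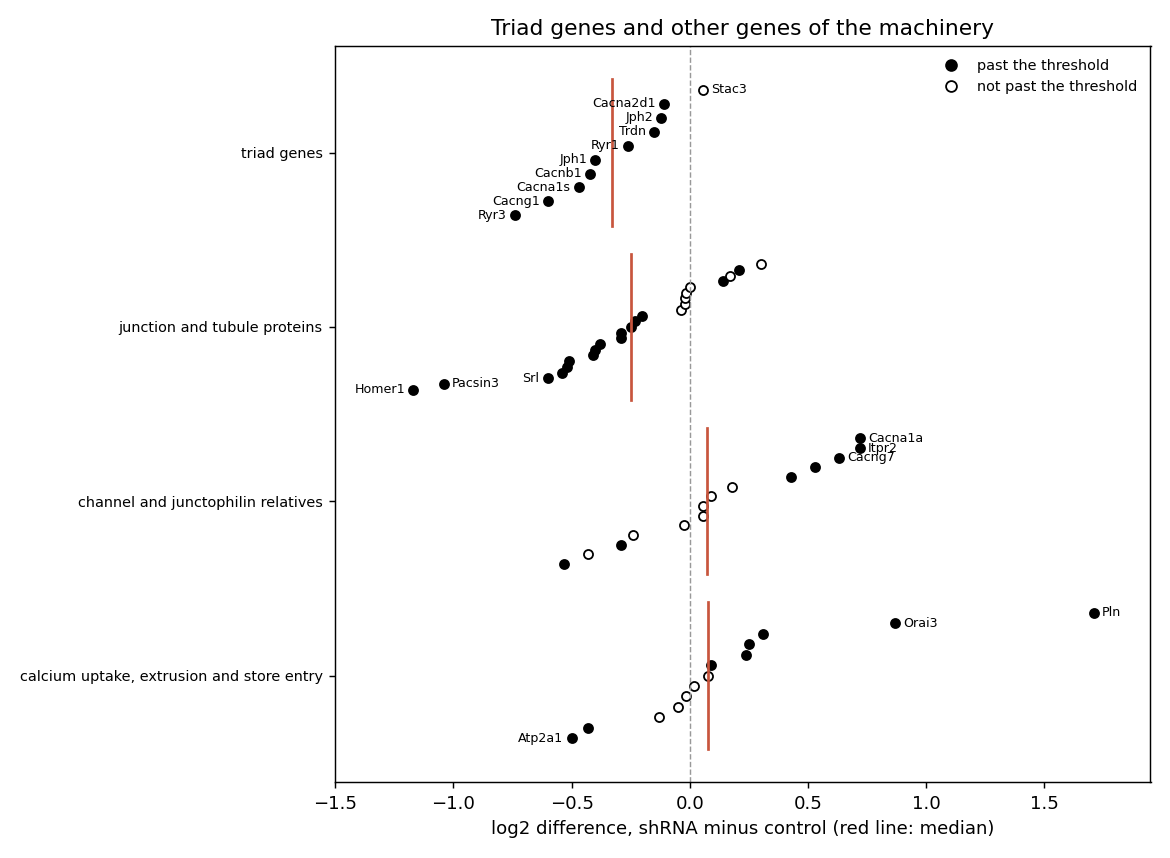
Log2 difference (shRNA minus control, x axis) of each tested gene in the triad set and in 3 lists of other genes of the machinery, on the brightest probe set; filled points passed the threshold, open points did not, and the red line is the median of a list. Medians lie at -0.33 for the triad, -0.25 for junction and tubule proteins, 0.073 for relatives of the channels and junctophilins, and 0.078 for calcium uptake, extrusion and store entry.

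Relatives of the triad channels that work mainly in other tissues were mostly dim. Of 26 with a named probe set 14 could be tested, and of these 5 rose, 2 fell and 7 did not pass (median 0.073), beside 35.7% of all genes that rose and 22.8% that fell, so these counts do not set the list apart from the array. Ryr2, the ryanodine receptor of heart, stood at 5.95 and 5.99, below the limit for testing. So did Cacna1c, the pore subunit of the cardiac channel, at 5.32 and 4.99. Itpr2, a receptor for inositol trisphosphate that also releases calcium, rose 1.64-fold, from 8.13 ± 0.15 to 8.85 ± 0.068, and both of its other tested probe sets rose (0.52 and 0.49). Cacna1a, a pore subunit of neuronal channels, rose by 0.72 on 1 probe set, but its other tested probe set stood at -0.16 (limma adjusted p = 0.277). Cacng7 rose by 0.63 from a control mean of 6.76, close to the limit for testing.

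Stac2, a relative of Stac3, rose by 0.53 (limma adjusted p = 0.000219), and Cacnb2, another beta subunit, by 0.43 (limma adjusted p = 0.0105). The control mean of Cacnb2, 6.43, lay below the limit for testing of 6.50, which it passed only through the shRNA arrays, so the size of that difference is not settled. Cacnb2 lost its call when control 2 was left out (0.35, limma adjusted p = 0.0558, range over the alternatives 0.00654 to 0.0558). The 2 that fell were Cacng6 (-0.53), a gamma subunit also found in skeletal muscle, and Cacna2d2 (-0.29). The latter was not called when control 1 (-0.22, limma adjusted p = 0.0807), shRNA array 1 (-0.27, 0.0712) or shRNA array 3 (-0.27, 0.0763) was left out, with a range over the alternatives of 0.00647 to 0.0807.

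Genes of calcium uptake, extrusion and store entry were called higher in 6 of 13 cases and lower in 2, and 5 did not pass the threshold (median 0.078). Of all genes 58.5% were called, 35.7% higher and 22.8% lower, and the share of this list lay near that background. Pln, phospholamban, which restrains the calcium pump of the store, stood at 10.72, 10.79 and 10.89 in controls and 12.45, 12.56 and 12.51 in shRNA samples. All shRNA arrays were far above all controls, a 3.27-fold increase (difference 1.71, SE 0.050, limma adjusted p = 8.96e-11), and its other 2 probe sets rose by 2.00 and 1.33. Orai3, a store-operated channel subunit, rose 1.83-fold, and Atp2a1, the fast-muscle calcium pump, fell 1.41-fold. The others that rose were Sln (0.31), Orai2 (0.25), Mrln (0.24) and Atp2b1 (0.090), and the other that fell was Atp2b4 (-0.43).

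The calls of Sln, Atp2b4 and Atp2b1 depended on single arrays, and those of Sln and Atp2b1 on the processing too. That of Sln ended when control 2 (0.32, limma adjusted p = 0.0680), control 3 (0.23, 0.138), shRNA array 1 (0.32, 0.0608) or shRNA array 2 (0.26, 0.129) was left out, within 0.0178 to 0.138 over the alternatives. It also ended with no filter (0.31, limma adjusted p = 0.0561) and with the arrays centred (0.25, 0.0697). That of Atp2b4 ended when control 3 (-0.36, limma adjusted p = 0.0892), shRNA array 2 (-0.32, 0.0930) or shRNA array 3 (-0.37, 0.0729) was left out, within 0.00113 to 0.0930. Atp2b1 lost its call in 11 of 14 alternatives, among them leaving out control 1, 2 or 3 or shRNA array 2 or 3, with values of 0.026 to 0.11 and limma adjusted p of 0.0392 to 0.572.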

How the data were processed

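The authors deposited normalized log2 signals of probe sets on an Affymetrix mouse genome GeneChip. That they are log2 values is inferred from their span (4.48 to 14.6), and the median was 7.23 on all 6 arrays. PLIER and MAS5 are named in the submitters' processing notes without roles, versions or a background correction. Of the value columns 0 had no sample. An array has no read depth, and 3 arrays per group limit the precision. Members and gene lists were chosen with earlier results of these data known.

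The 64 Affymetrix controls and then the dimmest 40% of the others by mean over all arrays (18015) were left out. Differences were tested with limma 3.58.1 in R 4.3.3 (lmFit, eBayes with a mean-variance trend, no covariates; Benjamini-Hochberg over all 27022 tested probe sets). A gene was represented by its brightest probe set, one ending in _x_at only where it had no other. Within-array ratios were compared by exact permutation over 20 assignments.

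All triad probe sets were reported. From each of the 3 other lists, up to 3 called genes with the largest differences and no overlap of arrays were named. Lists' other called members were named after their values were seen. The calculations were tested on simulated data for 27022 probe sets, with 100 planted differences of 0.5 and 100 of 1. Of these 64% and 97% were recovered, and 5.85% of calls were false. In the real data 53.9% of tested probe sets were called, so these rates need not hold there. Same-numbered control and shRNA arrays deviated from their group means with r = -0.134, -0.0616 and 0.0307, so the numbers were not taken as pairs.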

Additional observations from a re-analysis of the deposited data

How the results depend on the processing

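The counts of called genes and probe sets stayed within 1.5 times those reported in all alternatives run. Those changed the filter (none, or 20% left out), the scaling (centred, quantile, spike-in), the offset (16 subtracted), the variance trend, the replicate block, the choice of probe set per gene, or left out 1 array. Triad probe sets lower numbered 19 (no variance trend) to 23 (arrays centred), and with the replicate block 21; triad genes lower numbered 7 to 9. Leaving out 1 array gave 21 to 22 probe sets and 8 to 9 genes, and 27 to 33 partner genes called. Of 26 triad probe sets 21 kept direction and side of the threshold in all 14 alternatives for probe sets; the exceptions were 1 each of Cacna2d1, Stac3 and Jph2 and 2 of Trdn. The labels do not say whether same-numbered arrays belong together. With the replicate block the brightest Cacna2d1 probe set was no longer called (limma adjusted p = 0.0613). It was also lost without a filter (0.0540), after quantile normalization (0.0549) and without a variance trend (0.138). Stac3 changed sign with the arrays centred (-0.0076), as did the ratio of Cacna1s to Cacnb1 without control 3 (0.017, range -0.093 to 0.017). Stac3 was not called in any setting. The ratio could not be called, because the smallest exact permutation p possible was 0.1. The causes were not tested. Detection calls were not analysed, and a dim signal was not told from background.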
